A study of Mus musculus with 12 samples.

Results

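The genes described here are 10 components of MHC class I antigen presentation, taken by symbol from the 14851 genes listed for 562 cells. They are the heavy chains H2-K1 and H2-D1, the light chain B2m, the loading proteins Tap1, Tap2 and Tapbp, the immunoproteasome subunits Psmb8, Psmb9 and Psmb10, and the transactivator Nlrc5. All 10 were listed once and passed the filter on low values (at least 0.5 RPKM, reads per kilobase of gene scaled to library depth, in at least 3 of the libraries compared). RNA-sequencing covered 562 cells of 4 groups (control, and KO of Fip200, of Atg5 or of Atg7), with 3 libraries in each and 12 in all. 562 is a single spontaneously immortalized mouse line (C57BL/6) grown from a cutaneous vascular tumor of a Tsc1 f/f;Scl-Cre animal given tamoxifen, so the control cells lack Tsc1 as well, although their genotype label reads wildtype. Control cells received a guide against EGFP, and the KO cells received guides against Fip200, Atg5 or Atg7 in the same lentiviral CRISPR vector, followed by puromycin. More than 1 Fip200 KO clone was made, and which clone gave which library is not given in the sources used here. The study describes its mRNA samples as independent and its experiments in general as biological replicates, while the labels do not say which cultures the libraries came from, so the p-values measure the spread between these libraries.

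MHC class I molecules show peptides from inside the cell to CD8+ T cells. The peptides are cut by the proteasome, in which Psmb8, Psmb9 and Psmb10 replace the constitutive catalytic subunits Psmb5, Psmb6 and Psmb7 to form the immunoproteasome. Tap1 and Tap2 together form the transporter that carries peptides into the endoplasmic reticulum, Tapbp (tapasin) bridges the transporter to the heavy chain, and B2m pairs with the heavy chain to form the finished molecule. Nlrc5 is a transactivator of class I genes that works through a factor complex (RFX, CREB/ATF and NF-Y) on their promoters, and interferon gamma raises most of these genes through factors that include Irf1. Endothelial cells express class I constitutively.

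Library depth was 17266926 to 23629730 reads assigned to genes, recovered from the deposited values, and the deepest library held 1.37 times the reads of the shallowest. Of 9 endothelial and lymphatic endothelial markers, all were listed, with a summed level of 853 to 1350 RPKM in control, 1189 to 1914 in Fip200 KO, 1597 to 1871 in the Atg5 KO and 1233 to 1941 in Atg7 KO libraries. Of the lymphatic markers, Lyve1, Pdpn and Flt4 had control means of 113, 144 and 52.6 RPKM, and Prox1, which defines that lineage, ranged over the 12 libraries from 0.0366 to 5.79 RPKM. Cdh5 (log2 change 1.28), Lyve1 (1.25) and Kdr (1.35) were called higher in Atg5 KO cells, Lyve1 (1.11) also in Atg7 KO cells, and no endothelial marker was called in Fip200 KO cells. Of 7 blood and immune markers 4 were listed, summing to 34.5 to 91.8, 16.0 to 263, 10.1 to 11.8 and 7.14 to 27.1 RPKM in the same group order. Nearly all of that was Cd68, which was called lower in Atg5 KO (log2 change −2.26, adjusted p = 0.0064) and Atg7 KO cells (−1.70, adjusted p = 0.0798). The fibroblast and mural markers summed to at most 15.8 RPKM in any library, and of these Acta2 was called higher in Atg5 KO cells (1.50), while Krt19, the 1 epithelial marker of 3 listed, was called lower there (−2.57, adjusted p = 0.0048). Ptprc, the defining marker of blood cells, was at most 0.129 RPKM. The part of these markers in the results was not tested. Tsc1 RNA was still counted in control, at 5.23 to 7.01 RPKM, and a count per gene does not show from which exons it came. Rb1cc1 (Fip200) and Atg5 RNA levels in their own KO libraries overlapped those of control, and Atg7 fell to 2.64 to 8.34 RPKM in Atg7 KO libraries from 18.4 to 25.0 in control. Atg7 RNA was also below control in the Atg5 KO libraries, at 9.94 to 11.9 RPKM, and was at 38.3, 12.4 and 8.23 RPKM in the Fip200 KO libraries. A small edit need not lower the RNA, and these levels did not check the labels. Library names begin with FY for control replicate 1 and all Fip200 KO libraries, with JG for control replicates 2 and 3 and Atg5 KO replicates 1 and 2, and with Yang for Atg5 KO replicate 3 and all Atg7 KO libraries. What the prefix stands for is not given in the sources used here. Atg7 KO and control libraries share no prefix, so the 6 libraries of that comparison cannot separate the prefix from the knockout, and a prefix term was fitted over all 12 libraries, where the Atg5 KO libraries link the JG and Yang names. In that fit the Fip200 KO estimate compares the Fip200 KO libraries with control replicate 1 alone. The Atg7 KO estimate passes through Atg5 KO replicate 3, the only Atg5 KO library named Yang. A call lost with a prefix term thus also rests on fewer libraries, and its cause was not tested.

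Several class I pathway genes were called lower in Fip200 KO and in the Atg5 KO cells. The threshold for a call was an adjusted p of 0.1 or less together with a log2 change of 1 or more in size. In Fip200 KO cells 5 of the 10 genes were called lower (Tap1, Tapbp, Psmb8, Psmb9 and Nlrc5), where 1.64% of the 11803 genes tested were called lower. Psmb9 passed the filter there through its control level, so its call is a description and lends no support to that count. In Atg5 KO cells 5 were called lower (Tap1, Tap2, Psmb8, Psmb9 and Nlrc5), where 6.94% of 11833 genes were. In Atg7 KO cells 1 was called lower, Nlrc5, where 6.81% of 11784 genes were, so that count was near the background. With a term for the library-name prefix 1, 0 and 0 of the 10 were called lower, where 0.368%, 3.36% and 0.245% of all genes were. None of the 10 was called higher in any KO cells, as were 0.347%, 4.31% and 3.29% of all genes in the same order. The median log2 fold change of the 10 genes was −1.82 in Fip200 KO, −1.09 in the Atg5 KO and −0.83 in the Atg7 KO cells, and that of all genes tested was 0.016, 0.055 and −0.0080. All these comparisons use the same 3 control libraries. In bulk RNA, fewer cells expressing a gene and less RNA per cell cannot be told apart.

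**Figure D1:**
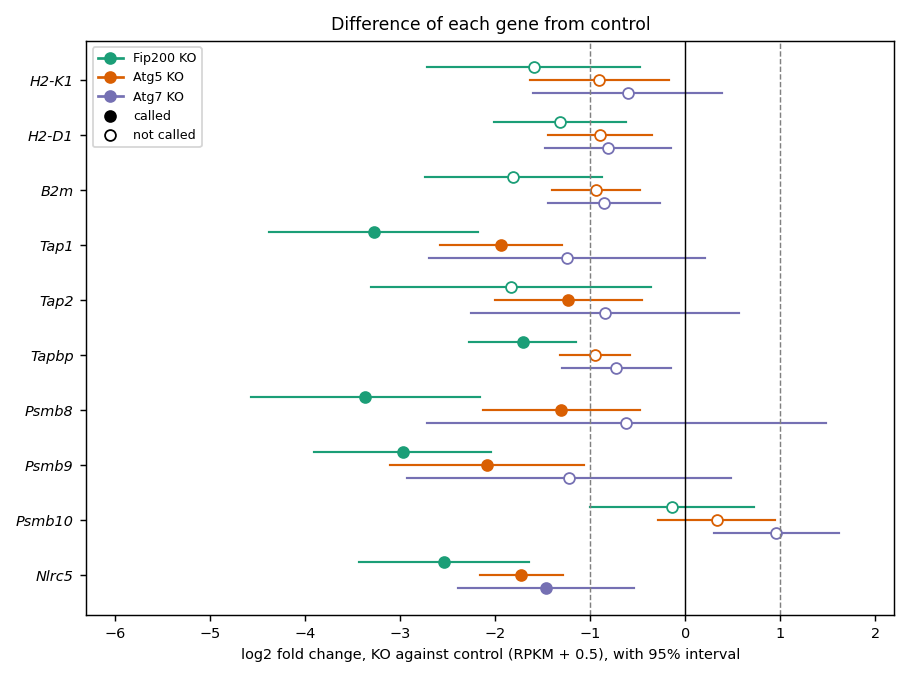
Log2 fold change of each gene against control cells on the log2(RPKM + 0.5) scale (horizontal axis), with a row for each gene and 95% intervals, in Fip200 KO (green), Atg5 KO (orange) and Atg7 KO cells (purple). Filled points were called and open points were not. Dashed lines mark a log2 change of 1 in size. The filled Psmb9 point of Fip200 KO cells is a description, since Psmb9 passed the filter there through its control level. Psmb8 in Fip200 KO cells lies farthest to the left at −3.36, and the 3 points of Psmb10 lie between −0.14 and 0.96.

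Nlrc5 (gene ID 434341) was the only one of the 10 called lower in all 3 KO cells, as were 139 of the 11608 genes tested in every comparison (1.2%). It was at 8.06, 11.9 and 7.86 RPKM in control replicates 1 to 3, at 1.93, 1.38 and 0.486 in Fip200 KO, at 2.30, 2.40 and 2.52 in the Atg5 KO and at 3.29, 5.19 and 1.44 in Atg7 KO libraries. All 9 KO libraries lay below the lowest control library. Its log2 fold change was −2.54 ± 0.381 (SE, n = 3 against 3; limma, adjusted p = 0.0411) in Fip200 KO, −1.72 ± 0.185 (adjusted p = 0.0038) in the Atg5 KO and −1.47 ± 0.395 (adjusted p = 0.0517) in the Atg7 KO cells. The Atg5 KO libraries differed by a factor of 1.10 from lowest to highest, whereas Fip200 KO libraries differed by 3.98 and Atg7 KO libraries by 3.61. Each of these calls was lost under some alternatives. With a prefix term the adjusted p was 0.333 in Fip200 KO, 0.107 in the Atg5 KO and 0.579 in the Atg7 KO cells. The log2 fold changes in Fip200 KO and Atg5 KO cells were then −2.37 and −1.83. The Fip200 KO call was also lost without any one of the control libraries or without Fip200 KO replicate 2 (adjusted p 0.111 to 0.306). The Atg7 KO call was also lost without control replicate 2, without control replicate 3 or without Atg7 KO replicate 1 (adjusted p 0.126 to 0.149), while its log2 fold change stayed between −1.82 and −1.05 over the alternatives run.

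The heavy chains H2-K1 (gene ID 14972) and H2-D1 (gene ID 14964) and the light chain B2m (gene ID 12010) have promoters built alike, and these are shown because they carry the motifs through which class I transcription is classically described. Of the 10 genes, 8 had an entry in the RefSeq promoter set for GRCm38.p6 (250 bases before to 50 after the start), and the set had 2 entries for H2-K1, of which the one starting farther downstream was taken. Capitals mark matches, on either strand, to the NF-kB consensus, the interferon response element core (GAAA, any 2 bases, GAAA), the short site TGACG bound by CREB/ATF factors and the CCAAT box (ATTGG on the other strand). The last base of each line is the base before the start of transcription.
H2-K1 (chr17:34000334-34000493, minus strand): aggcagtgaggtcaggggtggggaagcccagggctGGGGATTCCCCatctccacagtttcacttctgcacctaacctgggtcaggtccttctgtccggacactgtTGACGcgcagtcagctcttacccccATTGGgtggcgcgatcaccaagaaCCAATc
H2-D1 (chr17:35262894-35263093, plus strand): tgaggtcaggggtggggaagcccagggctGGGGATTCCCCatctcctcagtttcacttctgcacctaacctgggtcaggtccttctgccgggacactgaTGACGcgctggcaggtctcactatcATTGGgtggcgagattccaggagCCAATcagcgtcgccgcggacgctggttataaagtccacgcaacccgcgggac
B2m (chr2:122147537-122147686, plus strand): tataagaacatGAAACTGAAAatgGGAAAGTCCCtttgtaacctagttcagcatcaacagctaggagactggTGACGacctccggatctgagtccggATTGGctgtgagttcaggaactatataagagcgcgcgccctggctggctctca

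In each of these 3 promoters TGACG and ATTGG began 25 bases apart, an arrangement held by 31 of the 32851 promoter entries (0.0944%). TGACG alone was in 20.8% of entries, CCAAT or ATTGG in 37.4%, the NF-kB consensus in 4.51% and the interferon response element core in 3.44%. B2m alone of the 8 promoters held an exact match to the interferon response element core, beginning 139 bases before its start. Looser forms of the element were not searched for, so the other promoters were not shown to lack one. Lined up at TGACG without gaps, H2-K1 and H2-D1 shared 121 of 145 bases (83.4%). These matches describe the letters only. The genes themselves are close relatives, so reads could be split between H2-K1, H2-D1 and other class I heavy chains in the authors' counting, and their separate values are less certain than that of B2m.

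B2m was the most abundant of the 10 genes and the light chain of every class I molecule. It was at 1693, 2722 and 1868 RPKM in control, at 924, 615 and 352 in Fip200 KO, at 990, 1132 and 1095 in the Atg5 KO and at 1237, 1321 and 892 in Atg7 KO libraries. All 9 KO libraries were below all 3 control libraries. Ranked among all 14851 genes by RPKM, it stood at 3 to 11 in control libraries, and at 16 to 24 in Atg5 KO, 18 to 36 in the Atg7 KO and 25 to 142 in Fip200 KO libraries. Its log2 fold change was −1.81 (95% interval −2.74 to −0.88, adjusted p = 0.106) in Fip200 KO, −0.94 (−1.40 to −0.47, adjusted p = 0.016) in the Atg5 KO and −0.85 (−1.44 to −0.27, adjusted p = 0.0625) in the Atg7 KO cells. It therefore missed the adjusted p threshold in the first and the fold threshold in the others.

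H2-K1 was at 158, 290 and 134 RPKM in control, at 88.2, 83.7 and 29.9 in Fip200 KO, at 74.5, 116 and 108 in the Atg5 KO and at 217, 84.7 and 94.6 in Atg7 KO libraries. H2-D1 was at 155, 230 and 121 RPKM in control, at 86.1, 58.2 and 54.9 in Fip200 KO, at 78.9, 94.9 and 88.2 in the Atg5 KO and at 124, 77.5 and 82.2 in Atg7 KO libraries. For both heavy chains the Fip200 KO and Atg5 KO libraries lay below every control library, and Atg7 KO replicate 1 overlapped control. The log2 fold changes of H2-K1 were −1.59 (adjusted p = 0.186), −0.90 (0.0664) and −0.61 (0.35) in Fip200, Atg5 and Atg7 KO cells, and those of H2-D1 were −1.32 (0.112), −0.90 (0.0289) and −0.81 (0.0959). Neither heavy chain was called in any KO cells. Within a library B2m was 5.23 to 7.32 times the summed RPKM of H2-K1 and H2-D1 in control, 4.16 to 5.30 times in Fip200 KO, 5.37 to 6.45 times in the Atg5 KO and 3.63 to 8.14 times in Atg7 KO libraries, so each KO range overlapped that of control.

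**Figure D2:**
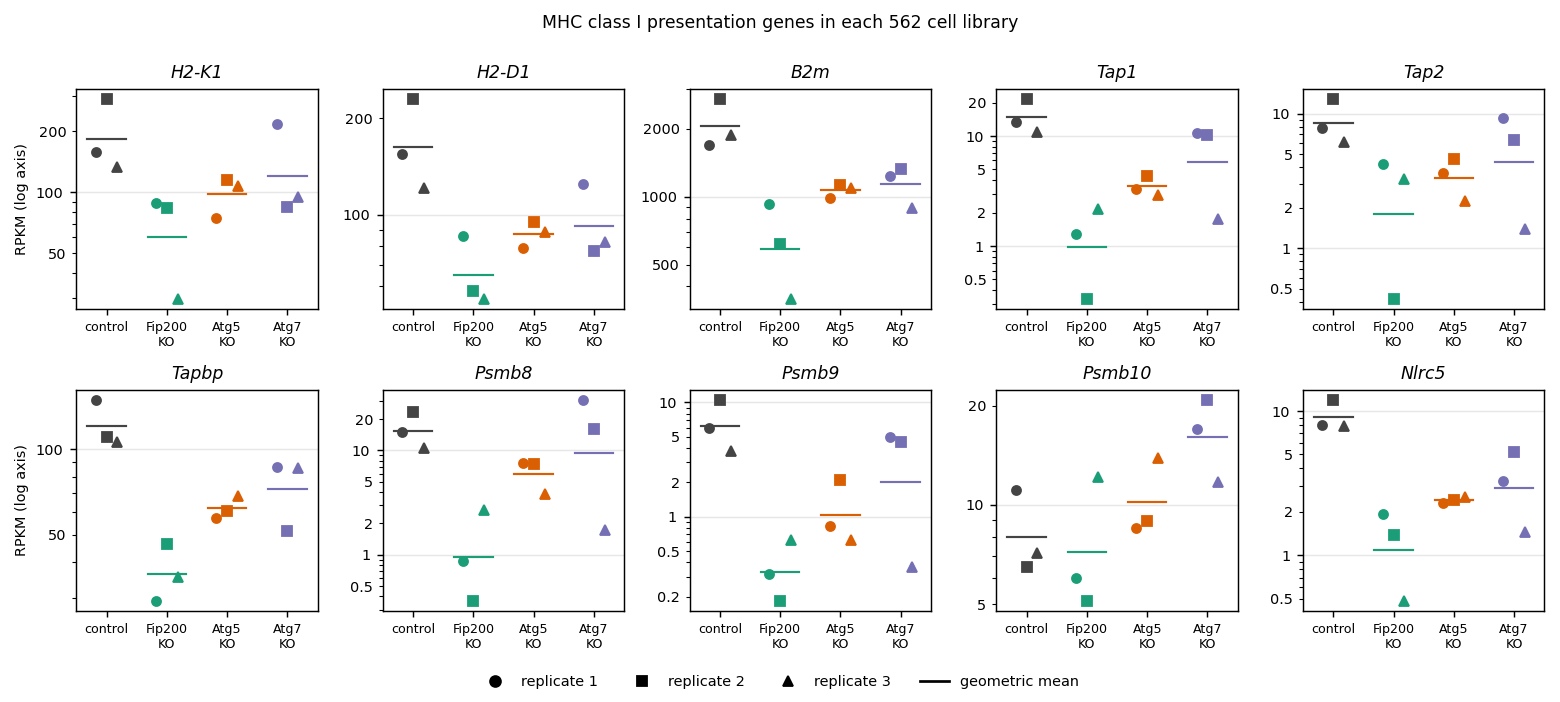
RPKM on log axes (vertical, a separate scale in each panel) of the 10 genes in 4 groups of 3 libraries each. Circles, squares and triangles are replicates 1, 2 and 3 and bars are geometric means. Control replicate 2 is the highest control library for 8 genes, and Atg7 KO replicate 3 is the lowest Atg7 KO library for 7.

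Tap1 (gene ID 21354) and Psmb9 (gene ID 16912) lie head to head on chromosome 17, and RefSeq places 225 bases between their starts. The whole stretch is shown because both transcripts are read from it, in opposite directions.
Tap1 and Psmb9 (chr17:34187331-34187555, plus strand, read towards Tap1): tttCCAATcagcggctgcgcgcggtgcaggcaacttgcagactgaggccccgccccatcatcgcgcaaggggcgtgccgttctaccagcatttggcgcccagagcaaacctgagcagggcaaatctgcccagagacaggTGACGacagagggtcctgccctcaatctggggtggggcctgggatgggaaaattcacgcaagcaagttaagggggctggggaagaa
Here the capitals mark TGACG, 86 bases before the Tap1 start, and CCAAT, 222 bases before it. In RefSeq order the neighbourhood runs H2-DMb1, Psmb9, Tap1, Psmb8, Tap2 and H2-Ob, so 4 of the 10 genes are adjacent. Nlrc5 and Psmb10 are on chromosome 8 and B2m is on chromosome 2.

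Tap1 was at 13.5, 21.9 and 11.0 RPKM in control, at 1.28, 0.332 and 2.16 in Fip200 KO, at 3.32, 4.36 and 2.92 in the Atg5 KO and at 10.6, 10.2 and 1.77 in Atg7 KO libraries. All KO libraries were lower than all control libraries, though Atg7 KO replicates 1 and 2 lay just under control replicate 3. Its log2 fold change was −3.28 ± 0.470 (SE, n = 3 against 3; adjusted p = 0.0386) in Fip200 KO, −1.94 ± 0.270 (adjusted p = 0.006) in the Atg5 KO and −1.24 ± 0.619 (adjusted p = 0.201) in the Atg7 KO cells. With a prefix term neither call remained (adjusted p = 0.399 in Fip200 KO and 0.216 in the Atg5 KO cells), with log2 fold changes of −3.15 and −1.90. The drop in Fip200 KO cells rested on 20 to 142 reads a library against 649 to 1551 in control.

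Tap2 (gene ID 21355), the partner of Tap1 in the transporter, was at 7.77, 12.9 and 6.12 RPKM in control, at 4.26, 0.419 and 3.26 in Fip200 KO, at 3.60, 4.58 and 2.25 in the Atg5 KO and at 9.21, 6.41 and 1.40 in Atg7 KO libraries. Fip200 KO replicate 2 stood far below its sister libraries, by a factor of 10.2 from the highest. Tap2 was called lower in the Atg5 KO cells (−1.23 ± 0.325, adjusted p = 0.032) and missed the threshold in Fip200 KO cells (−1.83, adjusted p = 0.227) and in the Atg7 KO cells (−0.84, adjusted p = 0.357). The call was lost with a prefix term (−1.05, adjusted p = 0.527). Within a library Tap1 was 1.69 to 1.79 times Tap2 in control, 0.301 to 0.792 times in Fip200 KO, 0.923 to 1.30 times in the Atg5 KO and 1.15 to 1.60 times in Atg7 KO libraries. No KO library reached the control ratio. No test was run on the ratio, which was chosen after its values were seen.

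Tapbp (gene ID 21356) was at 149, 111 and 106 RPKM in control, at 29.4, 46.5 and 35.5 in Fip200 KO, at 57.5, 60.5 and 68.3 in the Atg5 KO and at 86.4, 51.7 and 85.6 in Atg7 KO libraries. The KO libraries were all below control. The log2 fold change was −1.71 ± 0.240 (adjusted p = 0.0379) in Fip200 KO cells, where Tapbp was called, and −0.95 (adjusted p = 0.0084) in the Atg5 KO and −0.73 (adjusted p = 0.089) in the Atg7 KO cells, where it passed on p but not on fold. Tapbp was the 1 gene of the 10 still called in Fip200 KO cells when the fit held a term for the prefix of the library names (−2.01 with adjusted p = 0.0666; over all alternatives p lay between 0.00512 and 0.279).

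Psmb8 (gene ID 16913), the immunoproteasome form of Psmb5, had its largest drop in Fip200 KO cells and its widest spread in the Atg7 KO cells. It was at 15.0, 23.3 and 10.6 RPKM in control, at 0.866, 0.366 and 2.68 in Fip200 KO, at 7.58, 7.34 and 3.82 in the Atg5 KO and at 30.2, 16.0 and 1.72 in Atg7 KO libraries. Fip200 KO and Atg5 KO libraries were all below control, while in the Atg7 KO cells replicate 1 was above every control library and replicate 3 below every one, a 17.5-fold range. The log2 fold change was −3.36 ± 0.514 (adjusted p = 0.044) in Fip200 KO, −1.30 ± 0.346 (adjusted p = 0.0324) in the Atg5 KO and −0.62 ± 0.893 (adjusted p = 0.653) in the Atg7 KO cells. Without Atg7 KO replicate 3 the last turned to 0.49, so its direction rests on that library. With a prefix term neither call of Psmb8 remained (adjusted p = 0.594 in Fip200 KO and 0.613 in the Atg5 KO cells), with log2 fold changes of −3.32 and −1.03.

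Psmb9, the immunoproteasome form of Psmb6, had the lowest mean RPKM of the 10 genes in control libraries. It was at 5.95, 10.4 and 3.77 RPKM in control, at 0.313, 0.185 and 0.622 in Fip200 KO, at 0.835, 2.11 and 0.631 in the Atg5 KO and at 4.96, 4.49 and 0.365 in Atg7 KO libraries. In reads this was 91, 199 and 60 in control against 5, 3 and 11 in Fip200 KO libraries, so replicate 2 was at the limit of detection of 3 reads. Of the 4 libraries of that comparison at or above 0.5 RPKM, 3 were control libraries, so Psmb9 passed the filter through its control level, a fall in Fip200 KO cells was fixed by that, and its call there is given as a description. Psmb9 was called lower in Fip200 KO (−2.97 ± 0.397, adjusted p = 0.0363) and Atg5 KO cells (−2.09 ± 0.431, adjusted p = 0.0156) and not in the Atg7 KO cells (−1.23 ± 0.725, adjusted p = 0.274). Neither call remained with a prefix term (adjusted p = 0.53 and 0.24), with log2 fold changes of −2.92 and −1.87. At such low levels the added 0.5 RPKM makes the fold change smaller than that of the RPKM values. Tap1, which shares the promoter stretch, was 2.10 to 2.91 times Psmb9 in control libraries and 1.79 to 4.84 times over the KO libraries.

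Psmb10 (gene ID 19171), the immunoproteasome form of Psmb7, did not follow the other genes. It was at 11.1, 6.46 and 7.13 RPKM in control, at 6.00, 5.12 and 12.1 in Fip200 KO, at 8.52, 8.94 and 13.9 in the Atg5 KO and at 17.0, 20.8 and 11.7 in Atg7 KO libraries. Only in the Atg7 KO cells did its libraries lie apart from control, and there they were higher, as were those of 19.2% of all genes tested. The log2 fold change was 0.96 (95% interval 0.30 to 1.62, adjusted p = 0.0624) in the Atg7 KO cells, just short of the fold threshold, and −0.14 (−1.01 to 0.73, adjusted p = 0.876) in Fip200 KO and 0.33 (−0.29 to 0.95, adjusted p = 0.363) in the Atg5 KO cells. It was called higher in Atg7 KO cells without control replicate 1, without Atg7 KO replicate 3 and by voom on recovered reads (log2 fold changes 1.01 to 1.18). With a prefix term its log2 fold change there was 0.54 and it was not called. Over all alternatives the adjusted p there lay between 0.0527 and 0.815. The Fip200 KO estimate turned to 0.084 without control replicate 1 and to 0.089 without Fip200 KO replicate 2.

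Each immunoproteasome subunit was also set against the constitutive subunit it replaces, as a percentage of that subunit's RPKM. Psmb8 stood at 12.4% to 26.1% of Psmb5 in control, 0.870% to 2.39% in Fip200 KO, 4.22% to 8.67% in the Atg5 KO and 3.62% to 40.8% in Atg7 KO libraries. Psmb9 stood at 3.99% to 10.2% of Psmb6 in control, 0.190% to 0.586% in Fip200 KO, 0.551% to 1.83% in the Atg5 KO and 0.362% to 5.14% in Atg7 KO libraries. For both ratios the Fip200 KO and Atg5 KO libraries were separate from control (two-sided exact permutation test, p = 0.1, the smallest that 3 against 3 libraries can give), and the Atg7 KO libraries overlapped it. Psmb9 passed the filter in the Fip200 KO comparison through its control level, so its separation there is given as a description. Psmb10 stood at 2.75% to 4.88% of Psmb7 in control and 5.73% to 8.60% in Atg7 KO libraries, without overlap, and overlapped control in the other KO cells. The constitutive subunits were not called in any KO cells: Psmb5 differed from control by −0.40, 0.053 and −0.30 on the log2 scale in Fip200, Atg5 and Atg7 KO cells, Psmb6 by 0.22, 0.27 and 0.10, and Psmb7 by 0.011, −0.056 and −0.022.

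**Figure D3:**
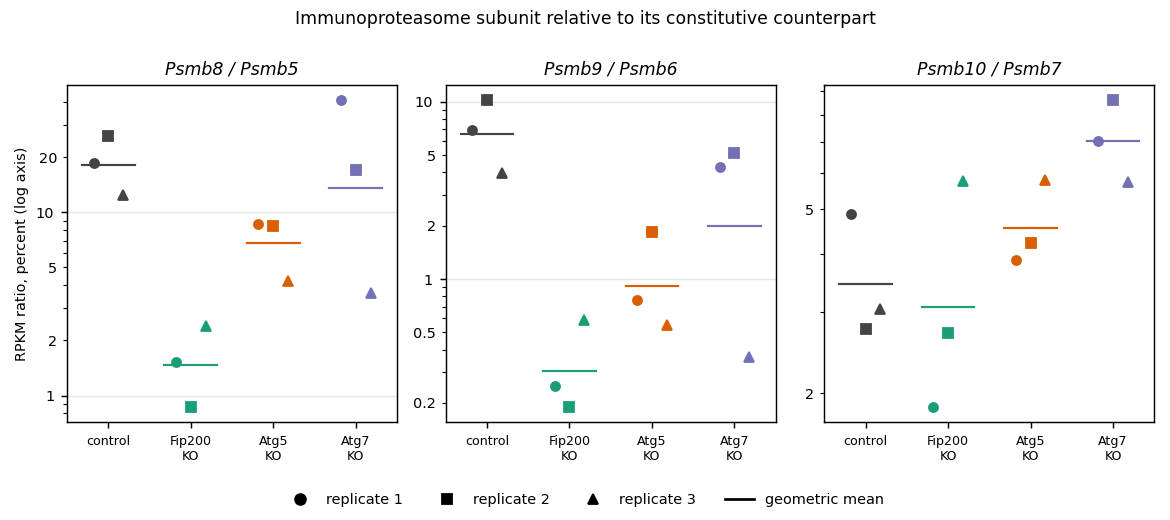
RPKM of each immunoproteasome subunit as a percentage of its constitutive counterpart in the same library (vertical log axes, a separate scale in each panel), for the 4 groups of 3 libraries. Circles, squares and triangles are replicates 1, 2 and 3 and bars are geometric means. Psmb8 in Fip200 KO libraries, at most 2.39%, lies below all other points. Psmb9 in Fip200 KO libraries is at most 0.586%, and replicate 3 of Atg7 KO (0.362%) and of Atg5 KO (0.551%) lie inside their range. Psmb10 in Atg7 KO libraries is at least 5.73%, and replicate 3 of Fip200 KO (5.77%) and of Atg5 KO (5.79%) lie inside their range.

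By geometric mean, 9 of the 10 genes were ordered control, Atg7 KO, Atg5 KO, Fip200 KO from high to low, and Psmb10 was ordered Atg7 KO, Atg5 KO, control, Fip200 KO. Neighbours in that order mostly could not be separated. Of the 9 genes, control and Atg7 KO libraries overlapped for 5, Atg7 KO and Atg5 KO libraries for all 9, and Atg5 KO and Fip200 KO libraries for 3. Against control, 9 genes had all Fip200 KO libraries below every control library, 9 had all Atg5 KO libraries below, and 4 (B2m, Tap1, Tapbp and Nlrc5) had all Atg7 KO libraries below. Of all genes tested 12.4%, 22% and 20.4% showed that separation in the same comparisons. The Fip200 KO count includes Psmb9, which passed the filter there through its control level, so its separation is a description.

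The KO cells were compared with each other in 1 fit of all 12 libraries. None of the 10 genes was called in any of these comparisons, as was no gene at all (0% of 12233 tested), and voom on recovered reads called none of the 10 either. At an unadjusted p under 0.05, the Atg5 KO and Fip200 KO cells differed for 4 of the 10 (7.58% of all genes), the Atg7 KO and Fip200 KO cells for 7 (7.49%), and the Atg7 KO and Atg5 KO cells for 0 (4.59%). With a prefix term these counts were 1 (4.54%), 0 (3.65%) and 0 (3.35%), and all Fip200 KO libraries carry the prefix FY and all Atg7 KO libraries Yang. Every one of the 10 was estimated higher in Atg5 KO than in Fip200 KO cells (median log2 difference 0.79, though Tap2 turned to −0.13 without Fip200 KO replicate 2) and higher in Atg7 KO than in Fip200 KO cells (median 1.03). All libraries were higher without overlap for 6 genes in the first of these comparisons (8.44% of all genes), for Tapbp in the second (3.86%) and for none between Atg7 KO and Atg5 KO cells (5.38%). Tapbp had the smallest adjusted p in both, 0.528 and 0.436, with log2 differences of 0.76 (95% interval 0.24 to 1.28) and 0.98 (0.47 to 1.50). Without Fip200 KO replicate 3, Tap1, Psmb8 and Psmb10 were called higher in Atg7 KO than in Fip200 KO cells, as were 1.63% of all genes in that fit. The lower values in Fip200 KO cells were therefore not shown to differ from those of the other KO cells.

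The calls in Fip200 KO cells rested on few libraries. Counts for these cells below include Psmb9, which passed the filter there through its control level. Without control replicate 2 or without control replicate 3, limma called no member and no gene of the whole table, while 8 and 9 members had an unadjusted p under 0.05. Of all genes tested 9.52% and 7.87% had such a p. Without control replicate 1 there was 1 call (0.501% of all genes were called lower), without Fip200 KO replicate 2 there were 2 (0.343%), and without Fip200 KO replicate 3 there were 6 (3.68%). The direction of Tap1, Tap2, Tapbp, Psmb8, Psmb9, Nlrc5, B2m and both heavy chains stayed the same in each of these. In Atg5 KO cells 5 to 9 genes were called lower with any single library left out, where 4.91% to 7.26% of all genes were, and the 9 came without control replicate 3 (5.38%). Within the FY libraries, control replicate 1 lay above all 3 Fip200 KO libraries for 9 genes, as for 21% of all genes tested, with log2 differences from −3.32 to −0.59 over all 10. Within the JG libraries both Atg5 KO libraries lay below both control libraries for 9 genes and above them for Psmb10, as for 33.5% and 40.3% of all genes tested, with log2 differences from −1.90 to 0.34. Within the Yang libraries all 10 genes of Atg5 KO replicate 3 lay inside the range of the Atg7 KO libraries, as did 50.4% of all genes tested. With the prefix as a term in the fit, limma called 1, 0 and 0 of the 10 genes in Fip200, Atg5 and Atg7 KO cells, and 7, 5 and 0 of the 10 had an unadjusted p under 0.05, where 7.17%, 21.1% and 9.62% of all genes did. The estimates of that fit for Fip200 and Atg5 KO cells equal the FY and JG differences above, so they are not separate checks.

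Control replicate 2 was the highest control library for 8 of the 10 genes and control replicate 3 the lowest for 8. In Atg7 KO cells replicate 1 was the highest for 7 and replicate 3 the lowest for 7, among them Tap1, Tap2, Psmb8, Psmb9 and Nlrc5. Atg7 KO replicate 3 had 20403430 reads, the most of its group. Irf1 was at 10.1, 3.69 and 5.85 RPKM in the Atg7 KO libraries and so was lowest in replicate 2. Among Fip200 KO libraries replicate 3 was the highest for 4 genes and the lowest for 4, and replicate 2 the lowest for 5: Tap1, Tap2, Psmb8, Psmb9 and Psmb10 were lowest in replicate 2, and B2m, H2-K1, H2-D1 and Nlrc5 in replicate 3.

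A list of other class I and class I-like heavy chains had 10 genes in the data. It did not hold H2-Q5, which is given with the genes of like pattern, or H2-K2, H2-M5 and H2-T3. Of the list, 1 of the 9 tested was called lower in Fip200 KO cells, 2 of 9 in the Atg5 KO cells and 1 of 10 in the Atg7 KO cells, where 1 was called higher. Of all genes tested 1.64%, 6.94% and 6.81% were called lower in the same order. H2-Q4 was at 35.1, 53.3 and 27.9 RPKM in control and at 10.7, 4.49 and 8.03 in Fip200 KO libraries (−2.28, adjusted p = 0.0553). H2-T23, which presents leader peptides to NK receptors, was at 53.8, 35.5 and 24.5 RPKM in control and at 14.9, 19.3 and 19.3 in Atg5 KO libraries (−1.004, adjusted p = 0.0364). Mr1, which presents vitamin B metabolites to MAIT cells, was called lower in Atg5 KO (−1.05, adjusted p = 0.0168) and Atg7 KO cells (−1.45, adjusted p = 0.0202). Hfe, a class I-like regulator of iron uptake, was higher in the Atg7 KO cells (1.37, adjusted p = 0.0239). With a prefix term none of these calls remained, with adjusted p-values of 0.541 for H2-Q4, 0.577 for H2-T23, 0.338 and 0.621 for Mr1 and 0.441 for Hfe. The H2-Q4 call was also lost without any one of the control libraries or without Fip200 KO replicate 2. In Atg5 KO cells the call of H2-T23 was also lost without control replicate 1 and that of Mr1 without control replicate 2, and both were lost without Atg5 KO replicate 1.

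None of the 7 loading partners and trimming enzymes (such as Calr, Pdia3 and Erap1) was called in any KO cells, and neither was any of the 3 proteasome activator and assembly genes (Psme1, Psme2 and Pomp). Their medians were −0.25, 0.072 and 0.19, and −0.76, −0.016 and −0.32, in Fip200, Atg5 and Atg7 KO cells. Of the activator and assembly genes, 2 had all Fip200 KO libraries below control, where 12.4% of all genes tested did, and 1 overlapped it. All 3 overlapped control in Atg5 KO and Atg7 KO cells. Of the loading partners 3 passed on p alone in the Atg5 KO and 1 in the Atg7 KO cells, where 41.5% and 25.1% of all genes passed on p. The 12 regulators of class I transcription gave no call either, and 5 and 2 of them passed on p alone in the same cells. Irf1 differed by −0.29, 0.086 and 0.31 and Rfx5, the DNA-binding subunit of RFX, by −0.29, −0.33 and −0.54 in the same order, with adjusted p-values of 0.145 to 0.801. The signs of the Irf1 estimates in the Atg5 KO and Atg7 KO cells turned when single libraries were left out.

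The 9 interferon receptor and signaling genes gave no call in any KO cells, nor did the interferon gamma-inducible genes, of which 9, 8 and 9 were tested. The median of the inducible genes was −0.58 in Fip200 KO, 0.10 in the Atg5 KO and 0.49 in the Atg7 KO cells. In Atg7 KO cells all 9 estimates were above 0 and 6 had every KO library above every control library, where 19.2% of all genes tested did. Among them were Irgm1 (0.92, adjusted p = 0.0721), Irgm2 (0.90, adjusted p = 0.0334) and Gbp3 (0.96, adjusted p = 0.0585), guanosine triphosphatases of the response to intracellular pathogens. In Fip200 KO cells Gbp3 was at −1.48 (adjusted p = 0.27) and Gbp2, another of them, at −1.30 (adjusted p = 0.119), with all libraries below control for Gbp2. The 3 in the Atg7 KO cells passed on p and not on fold, and all 4 were picked out after their values were seen.

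Of 7 MHC class II genes 3 were listed and 2 tested. H2-DMb1, a peptide exchange factor of class II and the neighbour of Psmb9, had 38, 161 and 99 reads in control libraries, 3, 1 and 1 in Fip200 KO, 6, 7 and 1 in the Atg5 KO and 0, 0 and 1 in Atg7 KO libraries. Most KO libraries were at or under the limit of 3 reads. The gene passed the filter on low values only through the control libraries, so a fall was fixed by the filter and its calls in the KO cells carry no support.

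**Figure D4:**
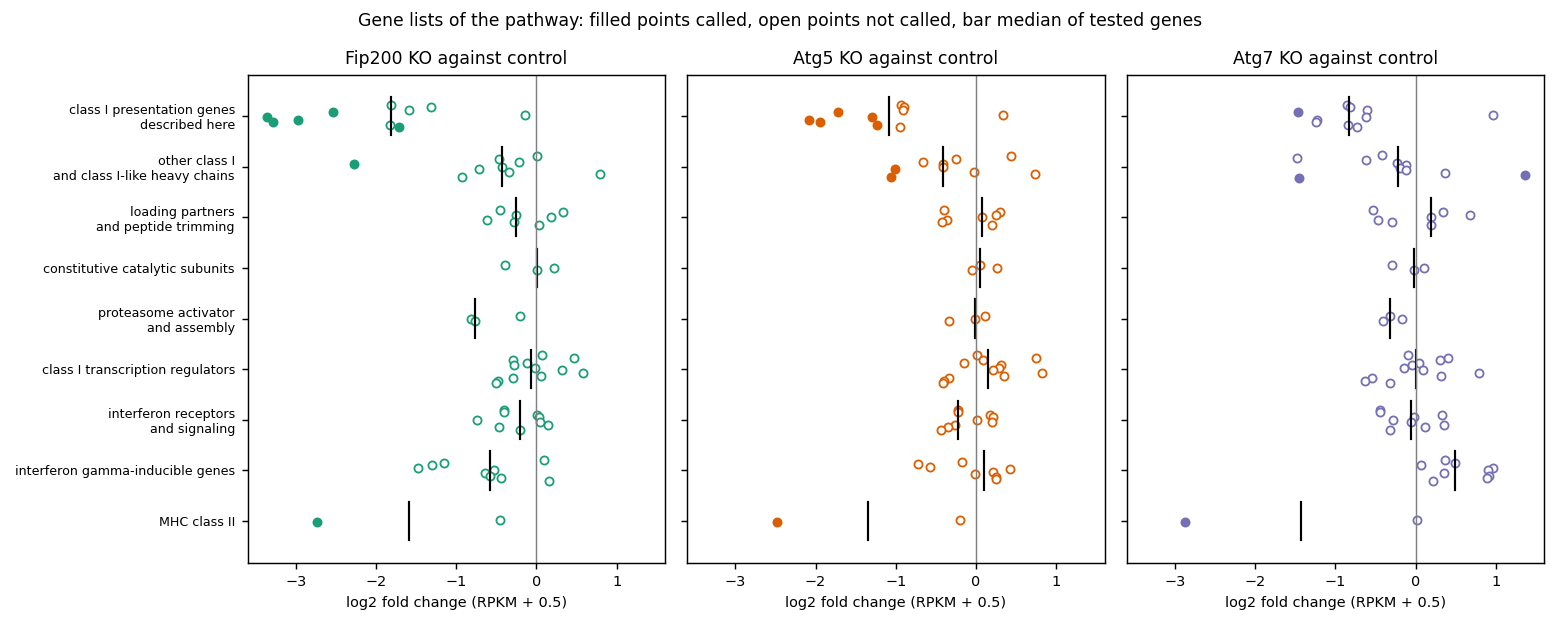
Log2 fold change against control (horizontal axis, log2(RPKM + 0.5) scale) of each tested gene, with a row for the 10 class I genes and a row for each other list, in Fip200, Atg5 and Atg7 KO cells. Filled points were called, open points were not, and vertical bars are medians; the filled point of the class II row is H2-DMb1, which passed the filter only through control libraries. The top row has medians of −1.82, −1.09 and −0.83, while those of the loading partners lie between −0.25 and 0.19. Those of the proteasome activator and assembly genes are −0.76, −0.016 and −0.32.

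The genes varied together across the 12 libraries, which share the group differences. Pearson's r of each gene with the mean of the other 9 (centred log2 values, n = 12 libraries) was 0.97 for Tap1, 0.96 for Psmb9, 0.91 for Psmb8, 0.87 for Nlrc5 and for H2-D1, 0.86 for B2m, 0.85 for Tap2, 0.75 for H2-K1, 0.73 for Tapbp and 0.20 for Psmb10. Of 10082 other genes with a mean of at least 2 RPKM, those most like the mean of all 10 were H2-Q4 (r = 0.92), H2-Q5 (0.90), Dstn (0.88), Gbp2b (0.88) and Klhdc2 (0.87). H2-Q4 and H2-Q5 are class I heavy chains themselves, whose reads could be shared with H2-K1 and H2-D1, and Gbp2b is an interferon-inducible guanylate-binding protein. H2-Q5 ranged from 3.69 to 7.14 RPKM in control, 0.270 to 0.684 in Fip200 KO, 1.10 to 4.19 in the Atg5 KO and 1.08 to 9.75 in Atg7 KO libraries.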

How the data were processed

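RNA was sequenced from 12 libraries of cultured 562 cells (directional kit; whether counting used strand is not given in the sources used here). Reads were aligned with TopHat2 and counted per gene by the authors, who deposited a value per gene and library in RPKM, a unit read from the values, and the mean signal of each group. The deposited columns of fold changes and p-values from the authors' own edgeR comparisons were not used. The genome build is not given in the sources used here. Whole reads were recovered from RPKM ratios for 14826 of 14851 genes (25 more were scaled by the deposited control mean), for depth and for 1 alternative.

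RPKM of at least 0.5 in 3 libraries was required. Values were tested as log2(RPKM + 0.5) with limma 3.58.1 (R 4.3.3, trended moderated statistics, Benjamini-Hochberg adjustment over all genes tested). KO against control used the 6 libraries compared, and KO against KO used all 12. Genes with adjusted p ≤ 0.1 and a log2 change of 1 or more in size were called. The method was tested on simulated data. The 10 genes and all lists were chosen with earlier results of these data known. Genes named were the 10 members, called genes of the lists, Psmb5, Psmb6, Psmb7, Irf1 and Rfx5, and the 5 genes most like the members; Irgm1, Irgm2, Gbp2, Gbp3 and examples of list members without values were added after the values were seen. A further gene of the naming rule is not reported here. The alternatives were pseudocounts of 0.1 and 1, no filter, median-of-ratios scaling, a fit of other libraries, a replicate block, the library-name prefix as a term, voom on recovered reads, and each library left out.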

Additional observations from a re-analysis of the deposited data

How the results depend on the processing

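Pseudocounts of 0.1 and 1, no filter on low values and median-of-ratios scaling changed 1 of the calls of single members against control: Tapbp in Atg5 KO cells was gained under scaling. With 1 fit of all 12 libraries the Fip200 KO count was 8 and the Atg5 KO count 3, where 3.68% and 5.33% of all genes were called lower. With a term for the library-name prefix the counts were 1, 0 and 0, and with voom on recovered reads 2 in Atg7 KO cells, 1 lower (7.96% of all genes) and Psmb10 higher (4.12%). Leaving out 1 library at a time gave 0 to 6 calls for Fip200 KO, 5 to 9 for Atg5 KO, 0 to 2 for Atg7 KO and 0 to 3 for Atg7 KO against Fip200 KO cells. In the Atg7 KO fits 3.22% to 8.14% of all genes were called lower and 1.68% to 4.87% higher. The cause of these changes in the counts was not tested. Same-numbered libraries did not deviate together (correlations −0.054, −0.041 and 0.044 for Fip200 KO, 0.079, −0.14 and −0.045 for Atg5 KO, −0.11, −0.22 and 0.067 for Atg7 KO against control), so the numbers do not pair them; a replicate block gave 3 calls in Fip200 KO cells (0.678% of all genes called lower) and left 5 and 1 in the others, and 0 between KO cells. Of 420 member results against control under alternatives, 361 kept their call and direction, 37 lost a call, 18 gained one and 4 changed sign. Signs turned for Psmb8 in Atg7 KO cells (0.24 with the prefix; −1.40 to 0.49 with a library left out), Psmb10 in Fip200 KO cells (−0.49 to 0.089) and Tap2 in Atg5 KO against Fip200 KO cells (−0.13 to 1.05). Other sign changes were all near 0 or between uncalled values: Psmb5 in Atg5 KO cells (−0.0037 with scaling, −0.0025 with the prefix), Psmb7 in Fip200 KO (−0.003 with scaling; −0.22 to 0.16 with a library left out) and Atg7 KO cells (−0.063 to 0.057), and Irf1 in Atg5 KO (−0.13 with the prefix; −0.16 to 0.26) and Atg7 KO cells (−0.41 with the prefix; −0.037 to 0.63). With 3 libraries a group, and with a prefix that Atg7 KO cells do not share with control, single calls are uncertain; low reads limit Psmb9 and H2-DMb1 in the KO cells.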
